A study of Mus musculus with 16 samples.

Results

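Glutamate and GABA are the main fast transmitters of the cerebellum, and the 43 genes described here encode the receptors that read them. They were picked by symbol alone, from the names of the AMPA, kainate, delta, NMDA and metabotropic glutamate receptor genes and of the GABA-A and GABA-B receptor genes, out of the 17074 genes in the table. Of the 43, 25 encode glutamate receptor subunits and 18 encode GABA receptor subunits. A mean normalized count of at least 10 over the 16 libraries was needed for testing, which 42 of the 43 reached. The exception was Gabre, the GABA-A epsilon subunit. Grm6, Gabrr1 and Gabrr3 carry names of the same kind and were not analysed here.

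AMPA, kainate and NMDA receptors are cation channels that glutamate opens, built from several subunits each, and metabotropic (mGlu) receptors signal through G proteins. GABA-A receptors are chloride channels assembled from alpha, beta and a further subunit such as a gamma or delta subunit, whereas GABA-B receptors are G protein coupled pairs of Gabbr1 and Gabbr2. In the mature cerebellum, granule cells are known for the alpha6 and delta GABA-A subunits, for the NMDA subunit GluN2C and for mGlu4 at their parallel fiber terminals. Purkinje cells receive glutamate from the parallel fibers of granule cells and GABA from molecular layer interneurons.

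RNA-Seq was performed on poly-A RNA of cerebellum from female C57BL/6 mice in 4 groups of 4 libraries each: aged Acsl6-/- (18 months), aged control (18 months), young Acsl6-/- (2 months) and young control (2 months). The Acsl6-/- mice carry a germline deletion in all tissues, obtained by crossing Acsl6 flox/flox mice with mice that express Cre from the CMV promoter, and the aged mice of both genotypes are labelled as naturally aged. Acsl6 itself, a long-chain acyl-CoA synthetase, had normalized counts of 2101 to 2336 in Acsl6-/- libraries and 5839 to 6973 in control libraries, with no overlap. Whether the counted exons include the deleted one is not given in the sources used here. Libraries held 16953548 to 27569428 reads on genes. Transthyretin (Ttr), a choroid plexus transcript, was above 5000 in 5 libraries (aged Acsl6-/- 1, aged control 3 and 4, young control 1 and 4) and between 87.9 and 435 in the other 11, so the counts of changed genes are also given without those 5, which leaves 3 aged and 4 young Acsl6-/- libraries and 2 aged and 2 young control libraries. Aged control 3 also stood apart in Gm42418, a gene model that overlaps ribosomal RNA sequence, with 686717 against 11003 to 41707 in the other libraries, and its 10 most abundant genes took 8.21% of its counts against 4.18% to 4.83%. Purkinje cell markers (12 of 12) and granule cell markers (10 of 10) were detected in every library, as the tissue label states.

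The receptor transcripts spanned more than 3 orders of magnitude. Levels are compared between genes as normalized count per kilobase of the longest annotated transcript, averaged over the 16 libraries, which leaves out any difference in transcript isoforms. Gabra6, the GABA-A alpha6 subunit, was the most abundant at 5512 per kb, and its 16 libraries (4477 to 6569) all lay above those of the next gene. Lower levels were measured for Gabbr1 at 3027, Grm4 at 2521, Grin2c at 2373, Grin1 at 1997 and Gria4 at 1996. From Gabbr1 down to Gria4 every neighbour in this order overlapped with the next across libraries. At the low end were Grin2b (22.8), Gabrr2 (18.7), Grin3b (12.8), Gabra5 (7.79), Gabrq (5.13), Gabrg3 (4.47) and Gabre (2.21).

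**Figure D1:**
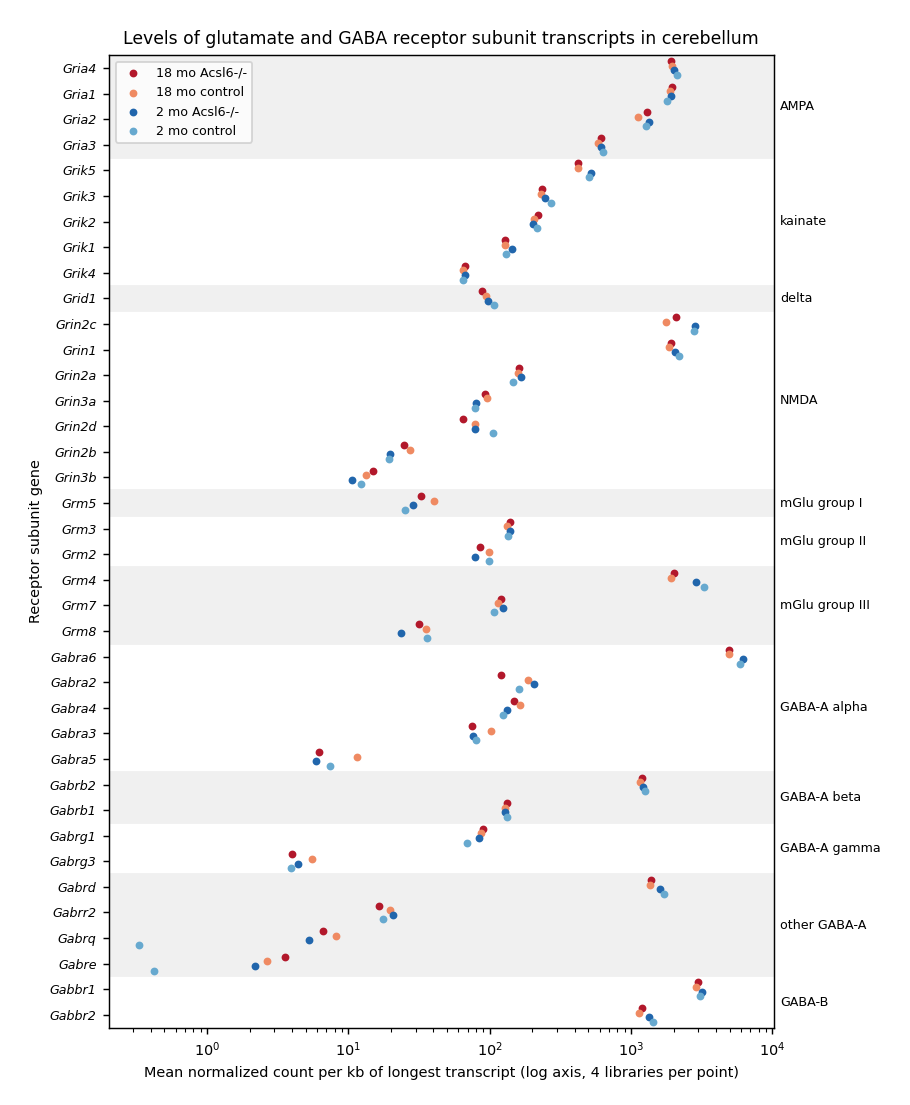
Mean normalized count per kb of the longest transcript (x axis, log scale) for the receptor subunit genes described (y axis, grouped by family), with 1 point per group of 4 libraries: 18-month Acsl6-/-, 18-month control, 2-month Acsl6-/- and 2-month control. The 4 points of most genes nearly coincide, Gabra6 is furthest right, and Gabrq and Gabre, at the far left, are the genes whose groups spread most.

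In several families a single gene held most of the level. Grm4 made up 94.5% of the per kb level of group III mGlu receptors and Gabrd 98.3% of the delta, epsilon, theta and rho group. In the alpha family, Gabra6 held 61.01%. Among NMDA subunits, Grin2c held 50.1% and the obligatory subunit Grin1 42.2%, against 3.34% for Grin2a and 0.482% for Grin2b, the GluN2 subunit of immature granule cells. AMPA receptors were more evenly divided, with 34.7% for Gria4, 32.8% for Gria1, 21.8% for Gria2 and 10.6% for Gria3. Kainate receptors were led by Grik5 (41.6%), group II mGlu receptors by Grm3 (60.2%), beta subunits by Gabrb2 (62.3%) and GABA-B receptors by Gabbr1 (70.3%).

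Age was the comparison in which receptor subunits changed. Between 18 and 2 months, the subunits of mature granule cells fell in both genotypes: Grm4, Grin2c, Gabra6 and Gabrd, with Grik5 and Gabbr2 among others beside them. Grin2b and Grin3a rose in both. Log2 fold changes are 18 over 2 months on the log2(normalized count + 1) scale, fitted with limma over all 17042 genes tested and called at a Benjamini-Hochberg adjusted p below 0.05. In Acsl6-/- mice 3 of 42 members rose and 9 fell, beside 11.6% of all genes tested that rose and 11.6% that fell. In control mice 6 of 42 rose and 13 fell, beside 15.3% of all genes that rose and 15.98% that fell. The members that rose were thus 7.14% of the 42 in Acsl6-/- mice and 14.3% in control mice, below and near the share of all genes, whereas those that fell were 21.4% in Acsl6-/- mice and 31.0% in control mice. The median log2 fold change of the 42 members was -0.05 in Acsl6-/- mice and -0.04 in control mice, where the median of all genes was 0.00 and 0.01. The age comparisons of the 2 genotypes share no library, but they share 1 estimate of the spread per gene, so their calls are not fully independent. The 8 members that fell in both were 88.9% of those that fell in Acsl6-/- mice and 61.5% of those that fell in control mice, and 19.0% of the 42 members, where 8.14% of all genes fell in both. The 2 that rose in both were 4.76% of the 42, again beside 8.14% of all genes. In 21 members neither comparison passed the test. By an unadjusted limma p under 0.05, 16 members differed with age in Acsl6-/- mice (38.1%, beside 35.1% of all genes) and 24 in control mice (57.1%, beside 42.1%). All 4 aged libraries lay on the same side of the 4 young ones for 11 members in Acsl6-/- mice (26.2%, beside 23.7% of all genes) and for 15 in control mice (35.7%, beside 30.3%). Without the 5 libraries high in Ttr, 4 members rose and 9 fell in Acsl6-/- mice, beside 10.7% of all genes that rose and 10.7% that fell, and 5 rose and 9 fell in control mice, beside 7.92% and 8.35%. With quantile normalization 8 rose and 9 fell in control mice, beside 14.8% and 17.03% of all genes. Without aged control 3, 7 rose and 9 fell in control mice, beside 12.9% and 13.6%.

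**Figure D2:**
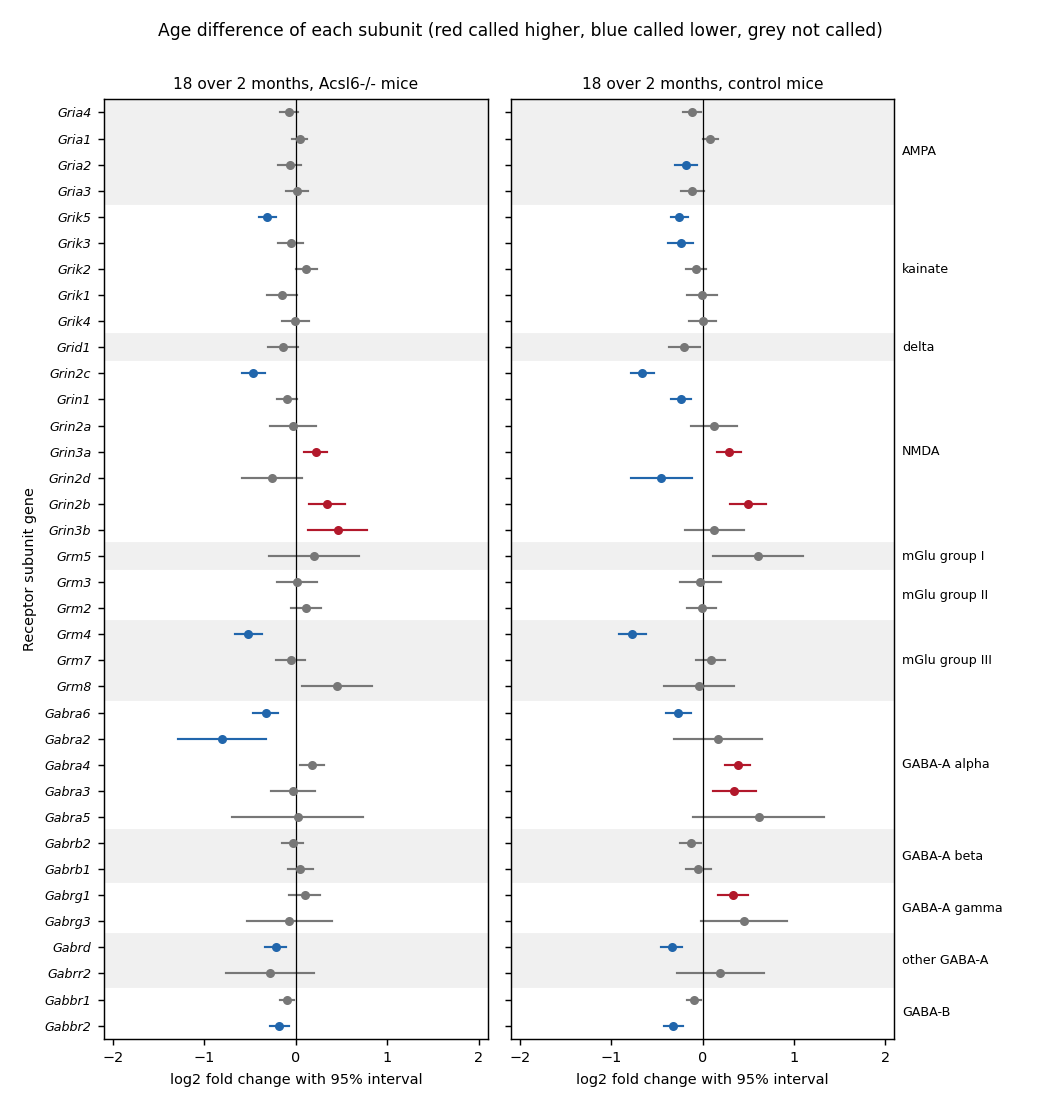
Log2 fold change of 18 over 2 months with its 95% interval (x axis) for the receptor subunits described (y axis, grouped by family), in Acsl6-/- mice on the left and control mice on the right, with members called higher in red, called lower in blue and the rest in grey. Grm4 lies at -0.52 in Acsl6-/- mice and -0.77 in control mice and Grin2c at -0.46 and -0.66 in the same order, while Grin2b lies to the right of 0 in both. Gabrq, whose interval is wider than the axis, is left out, and Gabre was not tested.

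Among NMDA receptor genes, Grin2c fell and Grin2b rose. Grin2c, whose product gives mature granule cell receptors their slow, weakly magnesium-blocked current, had normalized counts of 10089, 9127, 11383 and 9872 in aged Acsl6-/- libraries and 13132, 13598, 14539.8 and 14453 in young Acsl6-/- libraries. In control mice they were 8822, 8153, 8860.1 and 8863 in aged libraries and 14237, 13639.8, 14605 and 12444 in young libraries. In both genotypes every aged library lay below every young one. Grin2c fell by 27.5% in Acsl6-/- mice (log2 fold change -0.46 ± 0.06 (SE), limma adjusted p = 2.80e-05) and fell by 36.7% in control mice (-0.66 ± 0.06, adjusted p = 5.13e-07).

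Grin2b, which encodes the GluN2B subunit that GluN2C replaces as granule cells mature, was low, and its normalized counts were 652, 571, 552 and 605 in aged Acsl6-/- libraries and 516, 490.5, 428 and 448 in young Acsl6-/- libraries. In control mice, aged libraries had 599, 778, 644 and 626 and young libraries 405, 527, 425 and 517. The aged libraries of each genotype all lay above the young ones. The log2 fold change was 0.34 ± 0.09 in Acsl6-/- mice (limma adjusted p = 0.0144) and 0.50 ± 0.09 in control mice (adjusted p = 0.000651). Leaving out young Acsl6-/- 3 ended the call in Acsl6-/- mice (adjusted p = 0.0529), as did removing the trend on transcript length (0.206), within a range of 0.0054 to 0.206 over 27 alternatives. Per 100 Grin2c counts, Acsl6-/- mice had 5.92 ± 0.730 of Grin2b when aged and 3.40 ± 0.455 when young, and control mice had 7.67 ± 1.26 when aged and 3.44 ± 0.664 when young (SD, n = 4 each). Since both genes enter it, this ratio is no further evidence.

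Grin3a, a glycine-binding GluN3 subunit that lowers calcium flux, rose alongside Grin2b. Aged Acsl6-/- libraries had 685, 712, 700.3 and 672 normalized counts and young Acsl6-/- libraries 592, 645, 563 and 585. The values in control mice were 659.8, 749, 761 and 708 in aged libraries and 568, 596, 540.0 and 651 in young libraries. No aged library overlapped with a young one of its genotype. Its log2 fold change was 0.22 ± 0.06 in Acsl6-/- mice (adjusted p = 0.0163, 0.0576 without young Acsl6-/- 3, 0.0614 with the trend on transcript length removed, range 0.00882 to 0.0614 over 27 alternatives) and 0.29 ± 0.06 in control mice (adjusted p = 0.00169).

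The obligatory subunit Grin1 averaged 8188 ± 275 at 18 months and 8742 ± 607 at 2 months in Acsl6-/- mice (SD, n = 4 each), a difference that did not pass the test (log2 fold change -0.09 ± 0.05, adjusted p = 0.223). In control mice, aged libraries had 7802, 8858, 7379 and 7629 and young libraries 9476, 9207, 9163 and 9422, with the 2 groups apart. There Grin1 fell by 15.2% (-0.24 ± 0.05, adjusted p = 0.0022), and the call was lost without the 5 libraries high in Ttr (log2 fold change -0.14, adjusted p = 0.204, range 0.000181 to 0.204). Grin3b was near the floor of the table, with 56.8, 43.5, 42.2 and 53.2 in aged and 37.1, 37.6, 34.99 and 30.8 in young Acsl6-/- libraries. It was called higher in Acsl6-/- mice (0.46 ± 0.15, adjusted p = 0.0375), where its groups did not overlap, and not in control mice, where aged libraries had 45.5, 42.8, 47.4 and 40.3 and young libraries 38.4, 34.4, 39.5 and 49.8 (0.13 ± 0.15, adjusted p = 0.566). The Grin3b call was lost under 10 of 26 alternatives, 5 of which leave out a single Acsl6-/- library (young 1, 3 or 4, aged 1 or 4). Over all 26 alternatives its adjusted p ranged from 0.0312 to 0.127. Grin3b also shares 1059 exonic bases with Tmem259 on the opposite strand, which averaged 2404 normalized counts against 42.2 for Grin3b, and reads of the 2 genes cannot be told apart without the strand used for counting.

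Grin2d, named after its values were seen, ran from 331 to 568 in aged control and 509 to 644 in young control libraries, which overlapped. It was called lower in control mice (-0.45 ± 0.16, limma adjusted p = 0.0367), and without any of young control 2 or 4 or aged control 1, 3 or 4 the adjusted p lay between 0.0732 and 0.13. Without the libraries high in Ttr it was 0.292 (log2 fold change -0.40, range 0.00579 to 0.292). Grin2a, the other adult GluN2 subunit, averaged 2344 ± 115 at 18 months and 2430.4 ± 539 at 2 months in Acsl6-/- mice (95% interval of the log2 fold change -0.28 to 0.22). In control mice it averaged 2329 ± 142 at 18 months and 2147 ± 355 at 2 months (-0.12 to 0.38).

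Grm4 showed the largest fall of any member in control mice. This gene encodes mGlu4, the presynaptic receptor that restrains glutamate release from parallel fibers. Aged Acsl6-/- libraries had 10136, 8554, 9546 and 8973 normalized counts and young Acsl6-/- libraries 12309, 13449, 13569 and 13929.7. Aged control libraries had 9570.2, 9214, 8507 and 7949 and young control libraries 16078, 13648, 13606 and 16768. The lowest young library of either genotype lay above the highest aged one. Grm4 fell by 30.2% in Acsl6-/- mice (-0.52 ± 0.07, adjusted p = 5.85e-05) and fell by 41.2% in control mice (-0.77 ± 0.07, adjusted p = 7.13e-07).

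None of the other mGlu genes was called in both genotypes. Grm3, the leading group II receptor, which astrocytes also use, had 448, 403, 472 and 389 in aged and 516, 422, 397 and 370.3 in young Acsl6-/- libraries. Its values in control mice were 359, 460.3, 352 and 453 in aged and 447, 402, 418 and 375 in young libraries. These overlapped throughout (log2 fold change 0.01 ± 0.11 in Acsl6-/- and -0.02 ± 0.11 in control mice). Grm2, Grm5, Grm7 and Grm8 passed the age test in neither genotype, and Grm5, whose 95% interval was widest, had a log2 fold change of 0.19 ± 0.23 in Acsl6-/- mice (adjusted p = 0.593) and 0.61 ± 0.23 in control mice (adjusted p = 0.0556).

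Of the channels that carry fast glutamate current, the kainate subunit Grik5 changed in both genotypes. Grik5 encodes a high affinity subunit that forms channels only with other kainate subunits. Its normalized counts were 1782, 1520.0, 1744 and 1779 in aged and 2101, 2095, 2157 and 2110.5 in young Acsl6-/- libraries. In control mice they were 1698, 1731, 1659 and 1760.3 in aged and 2046, 2031, 2054 and 2028 in young libraries. No young library overlapped with an aged one of its genotype. Grik5 fell by 19.5% in Acsl6-/- mice (-0.31 ± 0.04, adjusted p = 6.20e-05) and fell by 16.1% in control mice (-0.25 ± 0.04, adjusted p = 0.000297). Grik3, named after its values were seen, was called lower in control mice alone (-0.24 ± 0.07, adjusted p = 0.0089), with 1855 to 2343 in aged and 2333 to 2697 in young libraries, and the call was lost without the libraries high in Ttr (log2 fold change -0.18, adjusted p = 0.199, range 0.00125 to 0.199). Its log2 fold change lay between -0.30 and -0.18 under all alternatives. Grik1, Grik2 and Grik4 passed the test in neither genotype.

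No AMPA or delta receptor subunit was called in both genotypes. Gria4, the most abundant per kb and known from Bergmann glia and granule cells, had 9809, 10528, 11089.8 and 10262 in aged and 11285, 10803, 11065 and 10602 in young Acsl6-/- libraries. The values in control mice were 10577, 10923, 10588 and 10230.0 in aged and 11450.2, 12031, 12176 and 10359.9 in young libraries, and the ages overlapped in both genotypes. The 95% interval of its log2 fold change was -0.17 to 0.03 in Acsl6-/- mice (adjusted p = 0.308) and -0.22 to -0.02 in control mice (adjusted p = 0.0655). Gria2, which makes AMPA channels impermeable to calcium and is named here after its values were seen, was called lower in control mice (-0.18 ± 0.06, adjusted p = 0.027). Its aged control libraries (11359 to 12247) overlapped with the young ones (12167 to 14060.2), and the call was lost without young control 2 or 3 or aged control 1, 2 or 3. It was also lost with quantile normalization, where the log2 fold change was -0.04 (limma adjusted p = 0.546, range 0.00665 to 0.546 over all alternatives). Gria1 and Gria3 passed the test in neither genotype. Of the delta receptors, Grid1 was called in neither genotype. Exons of Grin1, Grin2c and Grm7 overlap with annotated transcripts on the opposite strand over 1307, 91 and 130 bases in that order, and those of Gabra4 and Gabrb1 with each other over 46 bases, so their counts may share reads if strand was not used.

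The GABA-A subunits of granule cells fell with age in both genotypes. Gabra6, which joins with the delta subunit in the extrasynaptic receptors behind tonic inhibition of granule cells, had 11044, 12284, 13564 and 12053 in aged and 14847, 14469, 15974 and 16207 in young Acsl6-/- libraries. The control values were 12354, 11671, 11923 and 12624 in aged and 15088, 15586, 15383 and 12489 in young libraries. The ages were apart in Acsl6-/- mice, and in control mice a single young library (young control 4) lay within the aged range. Gabra6 fell by 20.5% in Acsl6-/- mice (-0.33 ± 0.07, adjusted p = 0.00147) and fell by 16.7% in control mice (-0.26 ± 0.07, adjusted p = 0.00557). With quantile normalization the control value missed the threshold (adjusted p = 0.0507, range 0.000255 to 0.0507 over 27 alternatives).

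Gabrd, the delta subunit, followed Gabra6. It had 3689, 3513, 4144 and 3557 in aged and 4164, 4074, 4509 and 4627 in young Acsl6-/- libraries. Aged control libraries had 3819, 3827, 3425 and 3609 and young control libraries 4889, 4458, 4615 and 4586. The control groups were apart, and in Acsl6-/- mice aged library 3 reached into the young range. Gabrd fell by 14.3% in Acsl6-/- mice (-0.22 ± 0.05, adjusted p = 0.0063) and fell by 20.9% in control mice (-0.34 ± 0.05, adjusted p = 0.000159).

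Gabrb2, the leading beta subunit, had 4548, 4748, 4871 and 4838 in aged and 4837, 4622, 5117 and 4919 in young Acsl6-/- libraries. Its control values were 4378, 4935, 4437 and 4609 in aged and 5556, 4974, 4533 and 5076 in young libraries, with overlap and no call in either genotype (95% interval -0.15 to 0.07 in Acsl6-/- and -0.24 to -0.02 in control mice).

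For the GABA-B receptor, Gabbr2, the subunit that couples to the G protein, was called in both genotypes and its partner in neither. Gabbr2 had 7042, 6656, 6725 and 6874 in aged and 7098, 7884, 7811 and 8165 in young Acsl6-/- libraries. In control mice it had 6749, 7159.9, 6434 and 6074 in aged and 8438, 8052, 7789.8 and 8651 in young libraries, and aged and young libraries were apart in both genotypes. The log2 fold change was -0.18 ± 0.05 in Acsl6-/- mice (adjusted p = 0.0145, 0.0519 without young Acsl6-/- 4, 0.0683 with quantile normalization, range 0.00456 to 0.0683) and -0.32 ± 0.05 in control mice (adjusted p = 0.000131). Gabbr1, which binds GABA, had 15473, 15957, 15794 and 14944 in aged and 16348, 16132, 16923 and 17148 in young Acsl6-/- libraries. Its control values were 15391, 15599.5, 14704 and 14912 in aged and 16429, 16768, 16323 and 15321 in young libraries. The Gabbr1 groups were apart in Acsl6-/- mice and met in control mice, but its log2 fold changes (-0.10 ± 0.04 in Acsl6-/- mice, adjusted p = 0.0596, and -0.10 ± 0.04 in control mice, adjusted p = 0.051) did not pass the threshold. The difference between the 2 genes was not tested. Of the other GABA-A genes, Gabrr2, a rho subunit, had a 95% interval of -0.76 to 0.19 in Acsl6-/- and -0.28 to 0.67 in control mice, and Gabra5, Gabrb1 and Gabrg3 were not called either.

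**Figure D3:**
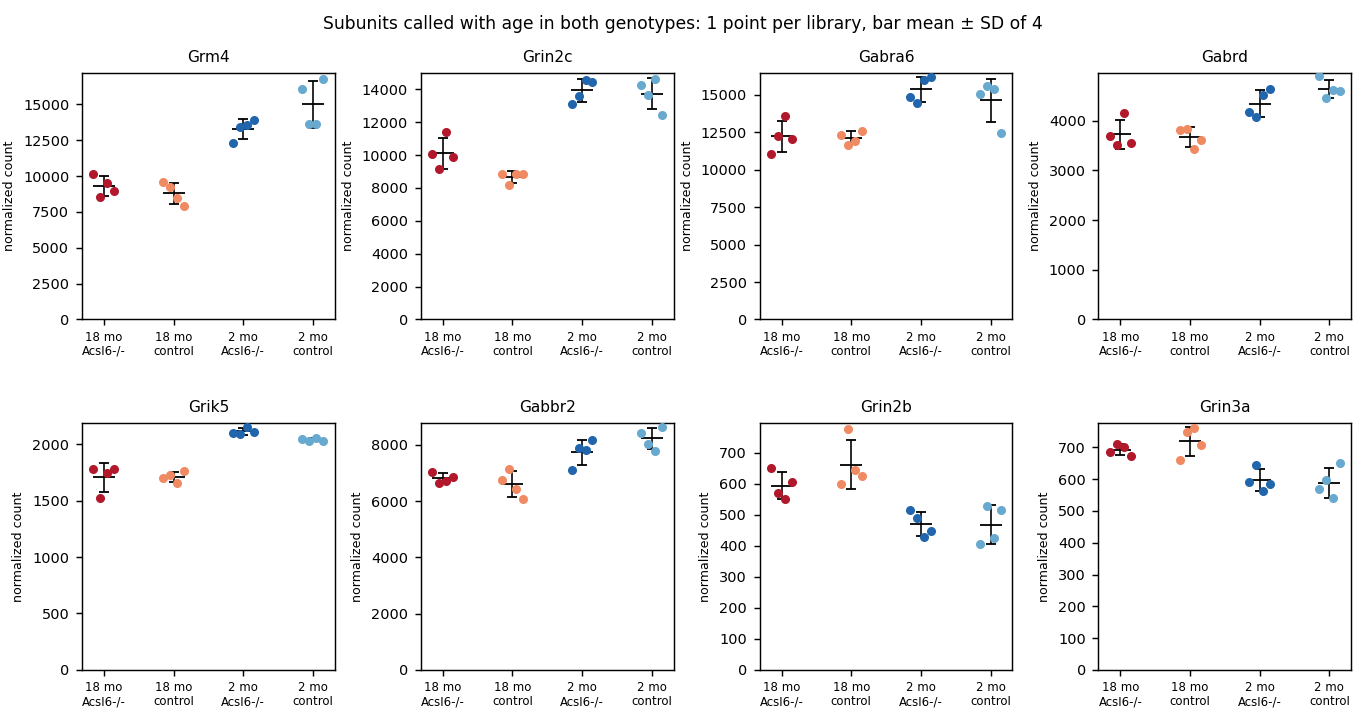
Normalized count (y axis, from 0) of 8 of the 10 subunits called with age in both genotypes, with 1 point per library and the mean ± SD of 4 libraries in each group (x axis: 18-month Acsl6-/-, 18-month control, 2-month Acsl6-/-, 2-month control). Grm4, Grin2c, Gabra6, Gabrd, Grik5 and Gabbr2 are lower at 18 months and Grin2b and Grin3a are higher, as in the Grm4 libraries that reach 10136 at most at 18 months and 12309 at least at 2 months.

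In bulk tissue, fewer cells of a type and less RNA per cell cannot be told apart. The granule cell markers (10 of 10 in the table, none of them a receptor gene and none at 0 in any library) moved with the granule cell subunits: their summed normalized counts were 89843 to 101875 in aged Acsl6-/- libraries and 115833 to 124694 in young Acsl6-/- libraries, and 89985 to 92897 in aged control libraries and 110864 to 127767 in young control libraries. The aged mean was 0.793 times the young mean in Acsl6-/- mice and 0.750 times in control mice, and 7 of the 10 markers in Acsl6-/- mice and 8 of 10 in control mice were called lower. Among young control libraries, young control 4 had the lowest marker sum (110864) and the lowest Gabra6 and Grin2c counts. The same library had the highest Grm4 count, and its Gabrd count lay within the range of the others. The sums of Purkinje cell markers (12 of 12, none at 0) overlapped between the ages in both genotypes, with 169592 to 191810.0 in aged and 160741 to 183300.0 in young Acsl6-/- libraries and 166271 to 174792 in aged and 162141 to 171413 in young control libraries. Single Purkinje markers did change: with age 2 were called higher (Ebf2 and Itpr1) and 2 lower (Pcp4 and Pvalb) in Acsl6-/- mice. In control mice 1 was called higher (Ebf2) and 0 lower. Itpr1, at a mean of 85812 in aged and 75238 in young Acsl6-/- libraries, made up a large part of the sums. Microglia markers (7 of 7) were called higher with age in both genotypes, with sums of 3424 to 4403 in aged and 1749.7 to 2128 in young Acsl6-/- libraries and 2893 to 3325 in aged and 1415 to 1823 in young control libraries. Their ratio of aged to young mean sums was 2.00 in Acsl6-/- and 1.90 in control mice. Oligodendrocyte markers (9 of 9) had sums of 75481 to 95734 in aged and 104242 to 132537 in young Acsl6-/- libraries and 73902 to 112694 in aged and 93854 to 107981 in young control libraries. Of these markers, 7 were called lower in Acsl6-/- mice (ratio 0.709, libraries apart) and 2 lower and 1 higher in control mice (0.936, libraries overlapping). The part of these shifts in the fall of Gabra6, Gabrd, Grin2c and Grm4 was not tested.

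Promoter sequence is shown for 3 of the 8 members that fell in both genotypes, since these members moved together. RefSeq promoter entries (GRCm38.p6) were matched for 28 of the 43 members and for 4 of those 8, Gabbr2, Gabra6, Grik5 and Grin2c. Each sequence is the 250 bases before the annotated transcript start on the minus strand, written 5′ to 3′ in the direction of the gene, and capitals mark each TTGGC on either strand (GCCAA on the other), the recognition half-site of nuclear factor I proteins, which are known to act in maturing granule cells. The Gabra6 window is chr11:42321073-42321322, the Grik5 window chr7:25072370-25072619 and the Grin2c window chr11:115267244-115267493.
Gabra6: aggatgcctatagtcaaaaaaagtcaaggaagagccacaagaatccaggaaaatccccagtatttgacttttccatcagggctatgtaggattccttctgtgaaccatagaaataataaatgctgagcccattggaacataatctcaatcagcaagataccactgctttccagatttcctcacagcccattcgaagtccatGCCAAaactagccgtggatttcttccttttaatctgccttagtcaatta
Grik5: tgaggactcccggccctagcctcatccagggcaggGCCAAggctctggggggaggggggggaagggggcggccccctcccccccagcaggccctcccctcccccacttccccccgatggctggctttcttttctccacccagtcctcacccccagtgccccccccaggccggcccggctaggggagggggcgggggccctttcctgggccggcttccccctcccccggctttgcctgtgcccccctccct
Grin2c: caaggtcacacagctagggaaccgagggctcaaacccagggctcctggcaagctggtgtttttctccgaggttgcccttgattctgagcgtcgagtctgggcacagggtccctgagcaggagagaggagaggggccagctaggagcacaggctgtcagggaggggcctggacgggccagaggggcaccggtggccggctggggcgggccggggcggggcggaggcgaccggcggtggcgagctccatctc

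These promoters differed in base composition, with a GC content of 40.8% in Gabra6, 75.2% in Grik5, 68.8% in Grin2c and 80.8% in Gabbr2, where the median of all 27025 promoters was 52%. TTGGC on either strand occurred once in Gabra6 and in Grik5 and not in Grin2c or Gabbr2, and 13 of the 28 member promoters (46.4%) held it, beside 41.9% of all promoters of this length. The GC box GGGCGG, read on both strands, occurred 3 times in Grin2c, 2 times in Grik5 and in Gabbr2 and not in Gabra6, and was in 16 of 28 member promoters (57.1%) beside 32.9% of all. The E-box CANNTG was in none of the 4 windows, in 13 of 28 member promoters (46.4%) and in 66.0% of all promoters. These counts describe letters only.

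Several GABA-A subunits rose in control mice alone, led by Gabra4. Gabra4 encodes an alpha subunit of extrasynaptic receptors. It had 639, 666, 676 and 702 in aged and 558, 525, 504 and 469 in young control libraries, which were apart (0.39 ± 0.06, adjusted p = 0.000211). In Acsl6-/- mice it had 558, 652, 644 and 606 in aged and 539, 502, 581 and 553 in young libraries, which overlapped (0.18 ± 0.06, adjusted p = 0.0544). The test of the difference between these age effects did not pass (interaction -0.21 ± 0.09, adjusted p = 0.459), so a call in 1 genotype does not show that the genotypes differed.

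Gabrg1, a gamma subunit known from Bergmann glia, had 426, 413, 402 and 417 in aged and 303, 338, 303 and 377 in young control libraries, which were apart. Aged Acsl6-/- libraries had 423, 464, 369 and 459 and young Acsl6-/- libraries 433, 397, 390.0 and 377. Both Acsl6-/- groups lay near the aged control level, and young control libraries were the low ones. Its log2 fold change was 0.33 ± 0.08 in control mice (adjusted p = 0.00421) and 0.10 ± 0.08 in Acsl6-/- mice (adjusted p = 0.418, interaction -0.24 ± 0.11, adjusted p = 0.508). Bergmann glia and astrocyte markers (10 of 10, none at 0) summed to 62776 to 64617 in aged and 57518 to 58212 in young control libraries and to 62791 to 65832 in aged and 60454 to 62383 in young Acsl6-/- libraries. With age, 5 of them were called higher and 2 lower in control mice, and 4 higher and 2 lower in Acsl6-/- mice. By genotype, Gfap was called higher in Acsl6-/- mice at 2 months. The part of these markers in the Gabrg1 values was not tested. Gabra3, an alpha subunit known from monoaminergic neurons of the brainstem, had 335, 435, 343 and 378 in aged and 293, 306, 265 and 301 in young control libraries (0.35 ± 0.11, adjusted p = 0.0265). In Acsl6-/- mice the values were 331, 238, 264 and 259.8 in aged and 332, 289.7, 229.5 and 265 in young libraries (-0.03 ± 0.11, adjusted p = 0.889). The control groups were apart and the Acsl6-/- groups overlapped, but the control call was lost without young control 3, aged control 2 or aged control 4 and without the libraries high in Ttr (range 0.0117 to 0.0903), and the interaction was -0.38 ± 0.16 (adjusted p = 0.447).

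In control mice, markers of brainstem, midbrain and deep nuclei neurons rose with age, as these subunits did. Their median log2 fold change with age was 0.90 in control mice, with 8 markers above 0 and 1 below. In Acsl6-/- mice the marker sums overlapped between the ages. The median there was -0.006, with 4 markers above 0 and 5 below. The 9 of 16 in the table, none at 0 in any library, summed to 1858 to 2374 in aged and 1102 to 1489 in young control libraries, with 3 of 9 called higher (Resp18, Sncg and Tac1), and to 1756 to 2468 in aged and 1141 to 2079 in young Acsl6-/- libraries, with 2 of 9 called higher (Resp18 and Th). Their part in the rise of Gabra3, Gabra4, Gabrq or Grin2b was not tested.

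Gabrq and Gabra2 varied widely between libraries of a single group. Gabrq, the theta subunit, had 114, 4.46, 0.880 and 12.5 in aged and 21.5, 81.6, 0 and 1.92 in young Acsl6-/- libraries. Control mice had 45.5, 15.4, 59.7 and 42.1 in aged and 0, 0, 0 and 6.58 in young libraries. A single Acsl6-/- library of each age was far above the rest of its group, and 3 young control libraries were at 0. Gabrq was called higher with age in control mice (4.50 ± 1.21, adjusted p = 0.00859), a size that depends on the pseudocount of 1, and not in Acsl6-/- mice (0.39 ± 1.21, adjusted p = 0.852). Its neighbour on the X chromosome, Gabre, which was not tested, had 47.95, 5.57, 4.40 and 3.13 in aged and 4.89, 26.1, 3.09 and 3.85 in young Acsl6-/- libraries, and 7.58, 1.10, 25.3 and 11.9 in aged and 3.49, 0, 0 and 3.76 in young control libraries. Aged Acsl6-/- 1 and young Acsl6-/- 2 were the highest for both genes. The choline transporter Slc5a7, a marker of cholinergic neurons in the brainstem list and named after its values were seen, was also highest in these 2 libraries, with 72.4, 3.34, 1.76 and 5.22 in aged and 8.80, 72.2, 7.20 and 0.962 in young Acsl6-/- libraries, and 15.2, 3.30, 6.12 and 7.32 in aged and 1.16, 6.15, 2.89 and 4.70 in young control libraries. Since Slc5a7 was picked with these values known, the match is no evidence. In control mice Gabrq and Gabre were highest in aged control 3 (59.7 and 25.3), where Slc5a7 had 6.12. Both were 0 in young control 2, where Slc5a7 had 6.15. The part of Slc5a7 in the Gabrq and Gabre values was not tested.

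Gabra2, named after its values were seen, encodes an alpha subunit of synaptic receptors. It had 567, 617, 635 and 1002 in aged and 1202, 1298, 1185 and 1139.9 in young Acsl6-/- libraries, which did not overlap, and was called lower (-0.81 ± 0.23, adjusted p = 0.0155). Control mice had 1184, 1078, 1488 and 593 in aged and 1216, 1127, 733 and 693 in young libraries (0.17 ± 0.23, adjusted p = 0.602). In 3 of the 4 groups its libraries fell into a lower range, from 567 to 733, and a higher one, from 1002 to 1488, with young Acsl6-/- libraries all in the higher range. The fold change in Acsl6-/- mice therefore describes 3 of 4 aged libraries and 0 of 4 young ones in the lower range. The sources used here give the strain as C57BL/6 with no substrain, and what goes with the split was not tested. The interaction of Gabra2 was -0.98 ± 0.33 (adjusted p = 0.31), the smallest adjusted p of any member for that term.

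**Figure D4:**
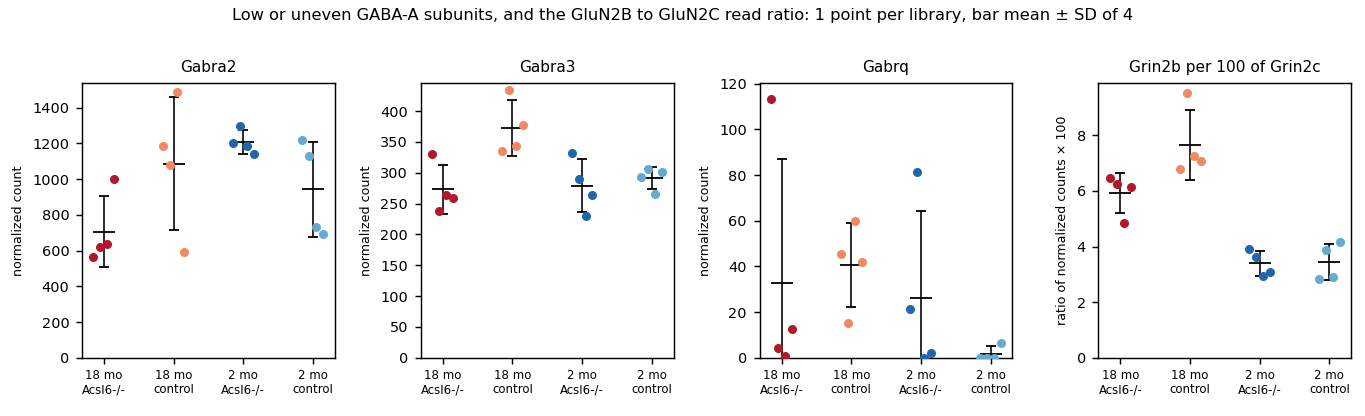
Normalized counts of Gabra2, Gabra3 and Gabrq and the Grin2b count per 100 of Grin2c (y axes, from 0), with 1 point per library and the mean ± SD of 4 libraries in each group (x axis: 18-month Acsl6-/-, 18-month control, 2-month Acsl6-/-, 2-month control), SD bars being drawn down to 0 where they would pass it. Gabra2 splits within groups, Gabrq is high in single Acsl6-/- libraries (114 and 81.6), and the Grin2b ratio is 4.85 or more in every 18-month library and 4.15 or less in every 2-month library.

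Several GABA-A subunit genes lie in clusters, and 2 of these are described. In the chromosome 5 cluster (Gabrg1, Gabra2, Gabra4, Gabrb1; 1398 kb in GRCm38), Gabrg1 and Gabra4 rose in control mice, Gabra2 was called lower in Acsl6-/- mice, with the split within groups given above, and Gabrb1 was not called. In the X cluster (Gabre, Gabra3, Gabrq; 587 kb), Gabra3 and Gabrq rose in control mice.

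No receptor subunit passed the limma test between Acsl6-/- and control mice at either age. At 18 months, 0 of 42 members were called higher and 0 lower by limma in Acsl6-/- against control mice, beside 0.0821% and 0.158% of all genes, and at 2 months 0 and 0, beside 0.135% and 0.0763%. By an unadjusted limma p under 0.05, 6 members differed at 18 months (14.3%, beside 9.15% of all genes) and 9 at 2 months (21.4%, beside 12.1%). edgeR on the recovered reads called none at 18 months, beside 0.117% of all genes higher and 0.170% lower, and none at 2 months, beside 0.141% and 0.0587% (7 and 10 members in the same order by unadjusted p). DESeq2 called 1 higher (beside 0.443% of all genes) and 1 lower (0.580%) at 18 months and none higher (0.932%) and 1 lower (0.683%) at 2 months, with 6 and 10 by unadjusted p in the same order. The smallest limma adjusted p among members was 0.117 at 18 months and 0.0906 at 2 months. The median log2 fold change of the 42 members was 0.01 at 18 months and 0.02 at 2 months, where that of all genes was 0.00 at both ages.

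For the 22 members whose mean normalized count reached 1000, the 95% intervals of the difference between Acsl6-/- and control mice all lay between -15.4% and 26.9% at 18 months and between -20.0% and 33.8% at 2 months, which is the size of change these libraries leave possible. All 4 libraries of one genotype lay on one side of the other 4 for 3 members at 18 months (7.14%, beside 5.17% of all genes) and for 5 members at 2 months (11.9%, beside 6.65%). At 18 months these were Grin2c, higher in Acsl6-/- mice, and Gabra3 and Gabrg3, lower. At 2 months they were Gabrg1, Grm7, Gria1 and Grik5, higher in Acsl6-/- mice, and Grm2, lower.

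The members nearest to a call are named here after their values were seen. Grin2c at 18 months had 10089, 9127, 11383 and 9872 in Acsl6-/- libraries and 8822, 8153, 8860.1 and 8863 in control libraries, with the lowest Acsl6-/- library above the highest control one (0.22 ± 0.06, limma adjusted p = 0.168). DESeq2 called it (adjusted p = 0.0413, range 0.0413 to 0.447 over 27 alternatives). Gabra3 at 18 months had 331, 238, 264 and 259.8 in Acsl6-/- and 335, 435, 343 and 378 in control libraries, which did not overlap (-0.45 ± 0.11, limma adjusted p = 0.117). It was called by DESeq2 (0.0271) and without aged Acsl6-/- 1 (0.0418), within a range of 0.0271 to 0.35. Grm2 encodes a glutamate receptor known from Golgi cells among others. It had 384, 386, 360.2 and 365 in Acsl6-/- libraries at 2 months and 484, 429, 527 and 432 in control libraries, all of them higher in control mice (-0.32 ± 0.08, limma adjusted p = 0.0906, DESeq2 adjusted p = 0.0193, range 0.0193 to 0.24). Markers of molecular layer interneurons and Golgi cells (8 of 8, none at 0) summed to 14319 to 16578 in young Acsl6-/- and 16442 to 17390.5 in young control libraries, and their part in the Grm2 values was not tested. At 18 months Grm2 averaged 403 ± 23.6 in Acsl6-/- and 465 ± 46.3 in control mice (SD, n = 4 each; -0.20 ± 0.08, adjusted p = 0.438).

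**Figure D5:**
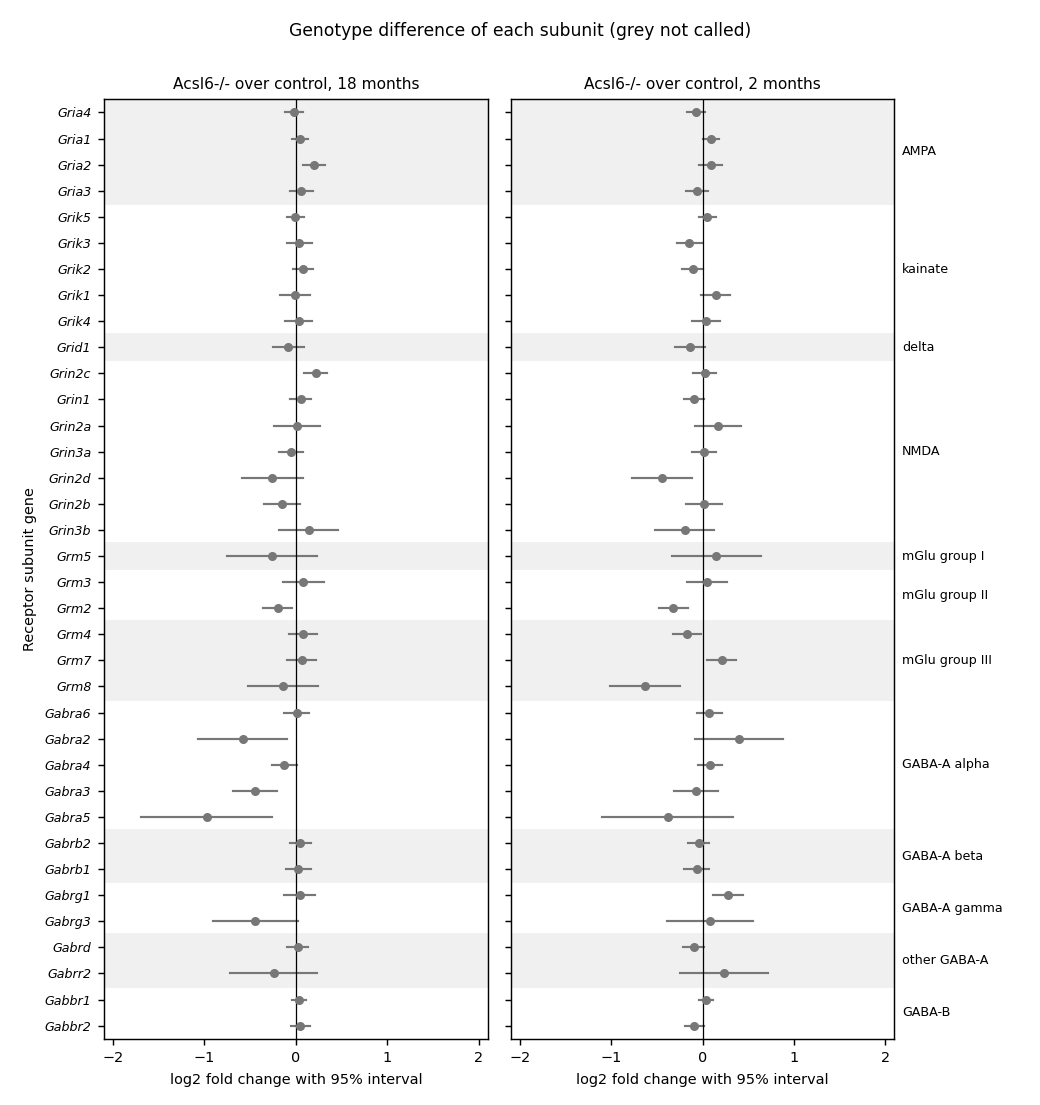
Log2 fold change of Acsl6-/- over control with its 95% interval (x axis) for the receptor subunits described (y axis, grouped by family), at 18 months on the left and at 2 months on the right. All points are grey because no member was called by limma, and the smallest adjusted p was 0.117 at 18 months and 0.0906 at 2 months. Gabrq, whose interval is wider than the axis, is left out, and Gabre was not tested.

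No member's age effect was shown to differ between the genotypes. In the interaction term 0 members were called higher and 0 lower by limma, beside 0.00587% and 0.0117% of all genes, and the smallest adjusted p was 0.310. An unadjusted limma p under 0.05 was reached by 7 members (16.7%, beside 10.02% of all genes). edgeR, which called 0.00587% of all genes higher and 0.0117% lower, and DESeq2, which called 0.242% and 0.459%, called no member (8 and 7 by unadjusted p). Grm4 and Grin2c fell less in Acsl6-/- than in control mice by their point values, with an interaction of 0.25 ± 0.10 for Grm4 (95% interval 0.03 to 0.46, adjusted p = 0.425) and 0.20 ± 0.08 for Grin2c (0.02 to 0.37, adjusted p = 0.453). At 2 months Grm4 averaged 13314 ± 700.4 in Acsl6-/- and 15025 ± 1639 in control mice, and at 18 months 9302 ± 689 in Acsl6-/- and 8810.2 ± 724 in control mice (SD, n = 4 each).

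Genes that work with these receptors were taken from 5 lists chosen by gene name. Their counts of called genes stand beside 11.6% of all genes that rose and 11.6% that fell with age in Acsl6-/- mice, and 15.3% and 15.98% in control mice, and some, such as 1 and 2 of 19 anchoring genes in Acsl6-/- mice, lay below those shares. Of 23 auxiliary subunits of glutamate receptors, 3 rose and 6 fell with age in Acsl6-/- mice and 6 rose and 6 fell in control mice, with medians of 0.00 and 0.03 on the log2 scale in the same order. Cbln1, a synaptic organizer that granule cells release from parallel fibers, averaged 13877 ± 1334 at 18 months and 17925 ± 1277 at 2 months in Acsl6-/- mice (-0.37 ± 0.07, adjusted p = 0.000686), and 13394 ± 951 at 18 months and 19753 ± 1299.6 at 2 months in control mice (-0.56 ± 0.07, adjusted p = 1.02e-05). Cacng2 (stargazin), which carries AMPA receptors to granule cell synapses, also fell (-0.24 ± 0.05 in Acsl6-/- and -0.36 ± 0.05 in control mice), as did the kainate receptor partner Neto2 (-0.33 ± 0.07 in Acsl6-/- and -0.42 ± 0.07 in control mice). Cacng5 and Shisa7 rose in both genotypes, by 0.46 ± 0.07 and 0.66 ± 0.11 in Acsl6-/- mice and 0.55 ± 0.07 and 0.69 ± 0.11 in control mice. Shisa9, an AMPA receptor partner, was the only gene of the 5 lists that limma called by genotype at either age: at 18 months it averaged 649 ± 13.4 in Acsl6-/- and 798 ± 70.4 in control mice (-0.29 ± 0.06, adjusted p = 0.0306). That call was lost without any of aged Acsl6-/- 2, 3 or 4 or aged control 1, 2 or 4 and when only the groups compared were fitted (range 0.0017 to 0.132 over 27 alternatives).

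Of 19 glutamate receptor anchoring genes, 1 rose and 2 fell in Acsl6-/- mice and 3 rose and 5 fell in control mice (medians -0.04 and -0.10), with Homer2 higher in both (0.73 ± 0.11 in Acsl6-/- and 0.72 ± 0.11 in control mice) and Dlg4, which encodes PSD-95, lower in both (-0.13 ± 0.04 in Acsl6-/- and -0.17 ± 0.04 in control mice), calls that were lost without the libraries high in Ttr (adjusted p = 0.0507 in Acsl6-/- and 0.0886 in control mice, ranges 0.00223 to 0.0507 and 8.10e-05 to 0.0886). The Dlg4 call in control mice was also lost with quantile normalization (limma adjusted p = 0.0531). Of 20 genes that anchor or assist GABA receptors, 0 rose and 6 fell in Acsl6-/- mice and 1 rose and 7 fell in control mice (medians -0.07 and -0.06). Slitrk3, which organizes inhibitory synapses (-0.61 ± 0.07 in Acsl6-/- and -0.53 ± 0.07 in control mice) and the GABA-B auxiliary subunit Kctd12 (-0.46 ± 0.07 in Acsl6-/- and -0.38 ± 0.07 in control mice) fell in both genotypes. Gphn, which encodes the scaffold gephyrin, was called lower in both as well, with a log2 fold change of -0.25 ± 0.06 in Acsl6-/- mice.

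Of 19 tested genes for transmitter supply and uptake, 3 rose and 4 fell with age in Acsl6-/- mice and 6 rose and 3 fell in control mice (medians -0.01 and 0.03). Slc17a7, the vesicular glutamate transporter of granule cells and also one of the granule cell markers above, averaged 8508 ± 383 at 18 months and 13257 ± 725 at 2 months in Acsl6-/- mice (-0.64 ± 0.04, adjusted p = 2.34e-08), and 8527 ± 382 at 18 months and 13756 ± 336 at 2 months in control mice (-0.69 ± 0.04, adjusted p = 1.01e-08). Gad1, which makes GABA, rose in both (0.20 ± 0.05 in Acsl6-/- and 0.17 ± 0.05 in control mice), and the control call was lost without young control 1 or 3 or aged control 2 (range 0.000947 to 0.0712). The glial genes Slc1a3 and Glul, which take up and convert glutamate, were called lower in both genotypes, and all 4 calls were lost with quantile normalization (adjusted p = 0.315 and 0.15 in Acsl6-/- and 0.403 and 0.284 in control mice, the highest of their alternatives). The Glul call was also lost without young Acsl6-/- 4 in Acsl6-/- mice, and without any of young control 1 to 4 or aged control 1 to 3 in control mice. Of 13 genes downstream of group I mGlu receptors, 1 rose and 1 fell in Acsl6-/- mice and 3 rose and 2 fell in control mice (medians -0.01 for both). Plcb3 was lower in both (-0.22 ± 0.06 in Acsl6-/- and -0.33 ± 0.06 in control mice), and Itpr1, the calcium store channel of Purkinje cells and a Purkinje cell marker, was higher in Acsl6-/- mice (0.19 ± 0.05, adjusted p = 0.00791). The Plcb3 call in Acsl6-/- mice was lost without aged Acsl6-/- 1 (adjusted p = 0.0508, range 0.00578 to 0.0508), and the Itpr1 call when the trend on transcript length was removed (0.0681, range 0.000419 to 0.0681).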

How the data were processed

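The authors used Trimmomatic 0.36 for trimming, STAR 2.5.2b for alignment to GRCm38 and featureCounts for counting per gene, and the strand setting is not given in the sources used here. They deposited normalized counts, a signal equal to the read count divided by a size factor per library, and every value in the 16 libraries came out as a whole read within 0.001. Genes whose mean normalized count was 10 or more (17042 of 17074) were fitted as log2(normalized count + 1) in 1 model of the 4 groups with limma 3.58.1 in R 4.3.3, with a trend and Benjamini-Hochberg adjustment over all genes (threshold 0.05). The limma fit was tested on simulated data first. The contrasts were 18 against 2 months in each genotype, Acsl6-/- against control at each age, and the interaction. Alternatives were edgeR 4.0.16 and DESeq2 1.42.0 on recovered reads, other scalings, pseudocounts, filters and trends, a replicate block, and leaving out libraries.

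The members, gene lists and tests were chosen with earlier results of these data known. Library values were given for up to 8 called members in each direction with the smallest p in each comparison, the most abundant member of each family per kb and Grin2b, and up to 4 called genes in each direction were named from each associated list. Some members that enter the counts are not reported here. Lengths came from the GENCODE annotation of GRCm38 and promoter sequence from RefSeq. The study gives n = 4 for the cerebella of each group, and the sources used here do not say further whether each library is 1 animal, or that equal replicate numbers pair libraries, so p-values measure only the spread between these libraries.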

Additional observations from a re-analysis of the deposited data

Results flagged for a closer look

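In 15 of 172 pairs of a member and a group of 4 libraries (8.72%) the highest or lowest library stood apart, its gap to the nearest other library passing Dixon's 95% critical value for 4 samples as a share of the group's range. Chance gives about 1 in 20. Aged Acsl6-/- 1 was high for Gabrq (114, others 0.880 to 12.5), Gabre (48.0, others 3.13 to 5.57), Gabra5 (31.3, others 10.03 to 13.6) and Grik4 (444, others 367 to 379), in normalized counts. Aged Acsl6-/- 2 was low for Grik5 (1520.0, others 1744 to 1782) and aged Acsl6-/- 4 was high for Gabra2 (1002, others 567 to 635).

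Aged control 2 was low for Grin2c (8153, others 8822 to 8863) and high for Grm8 (237, others 140.3 to 155), and aged control 4 was high for Gria2 (12247, others 11359 to 11460.4). Young Acsl6-/- 1 was high for Grik3 (2338, others 2141 to 2168) and young Acsl6-/- 2 for Gabre (26.1, others 3.09 to 4.89). Young control 4 was low for Gabra6 (12489, others 15088 to 15586) and Gria3 (3073, others 3377 to 3405) and high for Grik3 (2697, others 2333 to 2379) and Gabrq (6.58, others 0).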

How the results depend on the processing

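Of 90 fold changes of receptor and associated genes, all called ones and 3 others by genotype, 0 reversed under the alternatives run. In control mice the members that rose with age numbered 5 to 8 and those that fell 9 to 15 over 11 alternatives and the fit reported, and 5 to 7 and 9 to 16 when single libraries were left out. In Acsl6-/- mice they numbered 2 to 4 and 8 to 10, and 1 to 4 and 8 to 10 without single libraries, the count of 1 being without young Acsl6-/- 3, where Grin2b, Grin3a and Grin3b were lost and Gabra4 was gained. By genotype, DESeq2 called 1 member lower at 2 months (Grm2), 1 higher (Grin2c) and 1 lower (Gabra3) at 18 months. Leaving out single libraries gave 0 to 1 in each direction at both ages: 1 member higher and Grm8 lower at 2 months without young Acsl6-/- 1, Gria2 higher and Gabra3 lower at 18 months without aged Acsl6-/- 1. The replicate block gave 7 higher and 14 lower in control mice, 2 higher and 9 lower in Acsl6-/- mice and 0 by genotype or interaction. Whether equal numbers pair the libraries cannot be decided here. Of 24 same-number pairs, 4 had a correlation of deviations over 0.1 (median -0.03, against 0.02 for other pairs). Weak correlations do not exclude pairing. The cause of each lost or gained call was not tested. The planned limma fit on libraries whose reads could be recovered equals the fit reported, since all 16 could. Grin3b, Gabrg3, Gabrr2, Gabra5, Gabrq and Gabre averaged under 50 normalized counts.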
